A study of Homo sapiens with 12 samples.

Results

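The transcripts examined were those of 10 genes of iron metabolism, TFRC, SLC11A2, FTH1, FTL, NCOA4, SLC40A1, HMOX1, ACO1, IREB2 and FBXL5, taken by their symbols from a table of 26334 genes. All 10 were in the table, and 9 passed the low-count filter (an average of 10 or more counts per library), which left 12032 genes for testing. SLC40A1 did not pass. The libraries came from an A673 derivative that the labels call shA673-1c (A673 is an established Ewing sarcoma line), grown in DMEM with serum, blasticidin and zeocin. The cells were exposed to 5 µM actinomycin D, which blocks transcription, for 0, 1, 2 or 4 h, with 3 biological replicates at each time and 12 libraries of poly(A) RNA in all. The 0 h libraries are the reference, all from the same cell line, and there was no arm left without drug at 1, 2 or 4 h. What the "sh" and "1c" in the name of the line stand for was not given in the sources used here. The bracketed label of every library also begins with "CTL", which the labels do not spell out.

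Cells hold iron within a narrow range by regulating the fate of a few mRNAs. The iron regulatory proteins IRP1 (encoded by ACO1, and a cytosolic aconitase when it carries an iron-sulfur cluster) and IRP2 (encoded by IREB2) bind a hairpin called the iron-responsive element (IRE) when iron is scarce. Bound near the cap of the ferritin and ferroportin mRNAs they hold back translation, and bound to the 3′ UTR of the transferrin receptor mRNA they protect it from decay. FBXL5 is an iron-sensing F-box protein that targets IRP2 for degradation when iron is plentiful.

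The IRE matches are shown because they are the feature that links TFRC to the ferritins. The letters searched on the transcript strand, in the canonical transcripts of GENCODE version 44 on GRCh38, were CNNNNNCAGTGNNNNNN, a bulged C, 5 bases, the loop and 5 bases, with all 5 pairs of the upper stem required and G-T pairs allowed. In the runs below, capitals mark the bulged C and the loop of 6 bases, and each run is flanked by 6 bases.
FTH1 5′ UTR, chr11:61967574-61967602, minus strand: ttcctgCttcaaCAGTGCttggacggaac
FTL 5′ UTR, chr19:48965335-48965363, plus strand: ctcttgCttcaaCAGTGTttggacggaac
SLC40A1 5′ UTR, chr2:189580661-189580689, minus strand: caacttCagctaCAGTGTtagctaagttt
TFRC 3′ UTR site 1, chr3:196050979-196051007, minus strand: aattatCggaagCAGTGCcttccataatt
TFRC 3′ UTR site 2, chr3:196050575-196050603, minus strand: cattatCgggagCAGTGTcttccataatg
TFRC 3′ UTR site 3, chr3:196050510-196050538, minus strand: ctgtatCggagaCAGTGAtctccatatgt
TFRC 3′ UTR site 4, chr3:196050463-196050491, minus strand: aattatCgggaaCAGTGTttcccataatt
A match of this kind lay in the 5′ UTR of 9 of 10820 tested transcripts with such a region (0.0832%), FTH1 and FTL among them, and in the 3′ UTR of 91 of 10819 (0.841%). TFRC held 4 matches in its 3′ UTR, the highest number of any tested transcript, and only GPI and TMEM8B held as many as 2. No match was found in the other 6 members, including SLC11A2. For the members, annotated coding transcripts other than the canonical one were searched as well. The absence says only that these letters with all 5 stem pairs were not found in those transcripts, canonical or other.

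**Figure D1:**
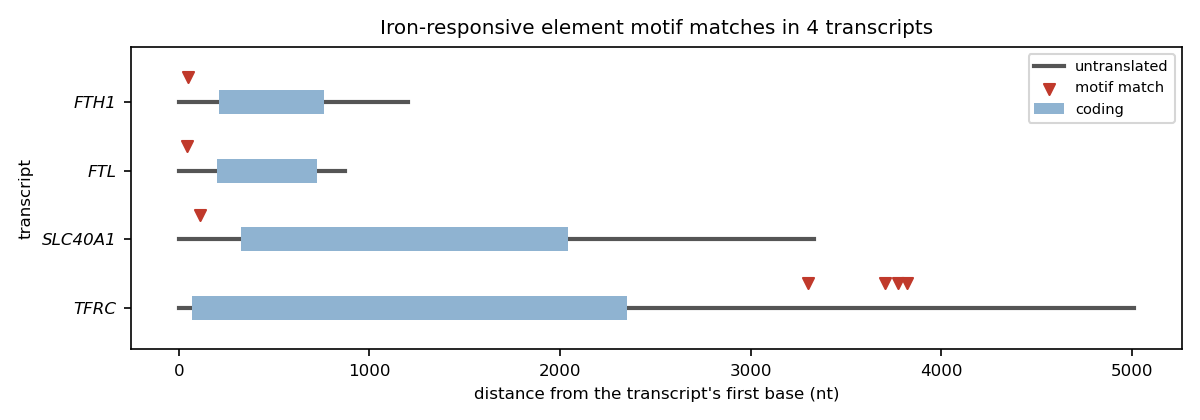
Positions of the IRE motif matches (red triangles) along the canonical transcripts of FTH1, FTL, SLC40A1 and TFRC, with the coding part as a blue block and untranslated parts as a line, in nt from the first base. FTH1, FTL and SLC40A1 each have 1 match before the coding part, at 33, 27 and 98 nt, and TFRC has 4 after it, between 3289 and 3833 nt of 5012.

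Library totals ranged from 9147018 to 11194705 counts, and replicates 1, 2 and 3 differed in a like manner at each time, so the value of a fit blocked on replicate is given beside the calls it changes. In the TMM-scaled fit MYC and JUN, short-lived mRNAs, fell by 1.12 and 0.89 per hour on the log2 scale. Of 9 Ewing sarcoma markers, 8 were tested, and CD99 was at 0 in each library. After its value was seen, 13 genes of the pseudoautosomal region, CD99 among them, were looked up, and all were at 0 in each library. CPM are counts scaled to a common library size, set by TMM except in sums of markers, which use library totals. The markers summed to between 1931 and 2281 CPM in every library, most of it CCND1 (1676 CPM at 0 h with TMM). FLI1 (80.0 to 20.4 CPM), NR0B1 (38.1 to 9.03), NKX2-2 (7.08 to 1.17) and BCL11B (48.2 to 18.1) fell from 0 to 4 h, and CCND1 rose by 0.063 per hour under TMM. CCND1 was not called with library totals (0.025) and fell when libraries were scaled to their GAPDH and ACTB counts (-0.074). STEAP1 (-0.0035), PRKCB (0.090) and GLI1 (-0.063) were not called under TMM. With the replicate block PRKCB rose (0.090, adjusted p = 1.39e-06, edgeR) and GLI1 fell (-0.062, adjusted p = 0.0452, edgeR). Of 6 markers of other cell types (PTPRC, PECAM1, EPCAM, HBA1, HBB and ALB), ALB was at 0, the mean count of HBB was 42.5 and the rest had means under 4. Their summed level was 5.03 to 7.09 CPM at 0 h and 3.13 to 3.66 CPM at 4 h, and its part in the results was not tested.

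At 0 h the storage transcripts were the most abundant members. Levels were compared as CPM per kilobase of the canonical transcript. FTL, the ferritin light chain, stood at 2432 ± 342 (SD, n = 3) and FTH1, the heavy chain with ferroxidase activity, at 637 ± 46.7. TFRC, the receptor that takes up transferrin-bound iron, followed at 123 ± 19.7, ahead of NCOA4 at 59.8 ± 3.41, the receptor that delivers ferritin for breakdown in lysosomes. The regulators IREB2, FBXL5 and ACO1 lay at 25.3 ± 0.76, 17.6 ± 0.961 and 12.9 ± 0.406. SLC11A2, the ferrous iron transporter DMT1, lay at 10.9 ± 0.235, HMOX1, which frees iron from heme, at 3.28 ± 1.87, and SLC40A1, the iron exporter ferroportin, at 0.111 ± 0.067. No neighbours in this order overlapped in their 3 libraries. At 4 h ACO1 had moved to place 5, IREB2 to place 7 and FBXL5 to place 8, again with no overlap between neighbours.

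During transcription block, the 2 genes of the IRP2 arm lost mRNA within hours while TFRC, both ferritins and ACO1 rose relative to TMM-scaled library sizes. A slope, in log2 change per hour, was fitted over 0 to 4 h with edgeR's quasi-likelihood test, and its p-value was adjusted by the Benjamini-Hochberg method over the 12032 genes. FBXL5, IREB2 and HMOX1 fell, and SLC11A2 and NCOA4 did not pass. FTL, FTH1, ACO1 and TFRC rose, the last 3 with a sign that turned under GAPDH and ACTB scaling. None of the 4 was called there, and with the replicate block added to that scaling TFRC fell (-0.032 ± 0.012, adjusted p = 0.0237). This count of 3 falling and 4 rising of 9 stands beside 32.1% of all tested genes falling and 30.7% rising, and is close to those shares. Slopes are relative to the scaling of the libraries, since no spike-in was used here, and in bulk RNA fewer cells and less RNA per cell cannot be told apart. Half-lives given below are taken from the TMM slope, so they too are relative to that scaling. Their confidence intervals do not cover the choice of scaling. A positive TMM slope is a gain relative to the TMM-scaled library size, whether from slower loss or from induction. It is not by itself a gain in share of all counts.

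**Figure D2:**
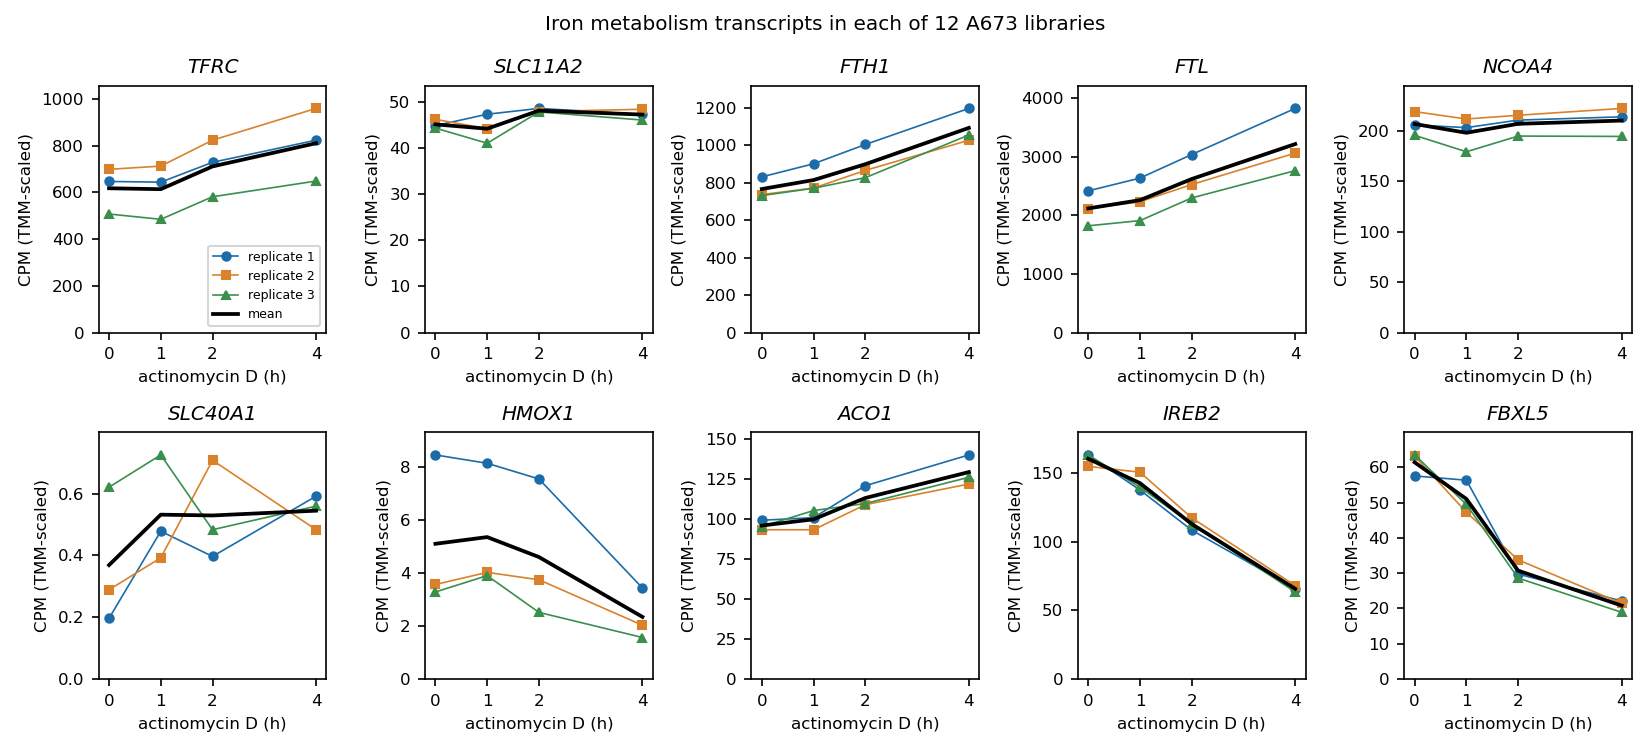
Level of each of the 10 genes in CPM (TMM-scaled, vertical axes from 0) against hours of actinomycin D, with 1 coloured line per replicate and the mean of 3 in black. IREB2 and FBXL5 go down in each replicate and FTH1, FTL and ACO1 go up on this scale (FTH1 and ACO1 not with GAPDH and ACTB scaling), whereas replicate 3 lies lowest for TFRC and replicate 1 highest for HMOX1 at every time.

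TFRC rose slowly under TMM. In replicates 1, 2 and 3 its level was 647, 699 and 508 CPM at 0 h and 644, 713 and 485 CPM at 1 h. It was then 729, 824 and 581 CPM at 2 h and 824, 960 and 649 CPM at 4 h. Replicate 3 was the lowest at each time, and the 0 h and 4 h ranges overlapped, although each replicate ended above its own start. The slope was 0.11 ± 0.038 (SE, adjusted p = 0.0211, edgeR), with slopes of 0.095, 0.12 and 0.10 in the replicates taken singly. The log2 difference of 4 h against 0 h was 0.39 ± 0.17 and did not pass (adjusted p = 0.0604), but a fit blocked on replicate gave 0.39 ± 0.029 (adjusted p = 3.19e-13). The slope was not called with library totals (0.068, adjusted p = 0.109). It was also not called without 0 h replicate 3 (0.086), 4 h replicate 1 (0.10) or 4 h replicate 2 (0.074), and with GAPDH and ACTB scaling its sign turned (-0.030, adjusted p = 0.443). With the block added to that last scaling TFRC was called lower, both by slope (-0.032 ± 0.012, adjusted p = 0.0237) and at 4 h against 0 h (-0.16 ± 0.033, adjusted p = 9.96e-05, edgeR). By the 3′ UTR alone TFRC has 12 ATTTA pentamers in 2658 nt, against a median of 2 in the tested coding genes.

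SLC11A2 showed little movement. Its 12 libraries lay between 399 and 500 counts, at a mean of 45.1 ± 0.972 CPM (SD, n = 3) at 0 h and 47.2 ± 1.17 CPM at 4 h. The slope of 0.022 (95% confidence interval -0.014 to 0.059) did not pass the test (adjusted p = 0.264, edgeR).

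Both ferritin transcripts rose under TMM, and neither was called with GAPDH and ACTB scaling, where FTH1 turned to -0.0078. FTH1 was at 832, 737 and 732 CPM in replicates 1, 2 and 3 at 0 h and at 902, 772 and 771 CPM at 1 h. By 2 h it was at 1005, 866 and 827 CPM, and by 4 h at 1197, 1027 and 1055 CPM. The 0 h and 4 h libraries did not overlap, and replicate 1 was the highest throughout. Its slope was 0.13 ± 0.020 (SE, adjusted p = 2.62e-05) and its level at 4 h was 1.43-fold that at 0 h.
FTL was at 2417, 2116 and 1821 CPM at 0 h and at 2635, 2231 and 1910 CPM at 1 h. Later values were 3037, 2525 and 2297 CPM at 2 h and 3823, 3062 and 2762 CPM at 4 h. Again the 0 h and 4 h libraries were apart, in the same replicate order at each time. Its slope was 0.16 ± 0.032 (SE, adjusted p = 0.000442), at percentile 93.4 of all slopes, and the 4 h level was 1.52-fold the 0 h level. The log2 differences of 4 h against 0 h were 0.51 ± 0.089 for FTH1 and 0.60 ± 0.144 for FTL (adjusted p = 0.000194 and 0.00238, edgeR). Ferritin pseudogenes took almost no reads in this table. The 2 FTH1P rows held 12 counts in all 12 libraries, 0.0112% of the FTH1 counts, and the 1 FTLP row held 0, so how multi-mapped reads were counted remains unknown. BEST1, which overlaps FTH1 on the other strand, held 17 to 37 counts.

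NCOA4 stayed level. Its counts ranged from 1740 to 2302, and its mean was 207 ± 11.8 CPM (SD, n = 3) at 0 h and 210 ± 14.3 CPM at 4 h. The slope was 0.011 (95% confidence interval -0.025 to 0.048, adjusted p = 0.587, edgeR). With SLC11A2 it was the only tested member without a call under TMM, and the slopes of both turned negative with library totals (-0.028 for NCOA4 and -0.017 for SLC11A2, neither called) and with GAPDH and ACTB scaling (-0.13 and -0.12, both called).

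SLC40A1 was barely detected. It held 2 to 8 counts per library, between 0.196 and 0.725 CPM, and no fold or test is given at this depth.

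HMOX1 was low and fell. Its counts were 86, 37 and 37 in replicates 1, 2 and 3 at 0 h and 85, 41 and 43 at 1 h. At 2 h they were 76, 37 and 26, and at 4 h 29, 21 and 14. Replicate 1 was the highest at each time, and its 4 h level of 3.43 CPM lay within the 0 h range of 3.28 to 8.45 CPM. The slope was -0.28 ± 0.12 (SE, adjusted p = 0.0465), a half-life of 3.59 h with a 95% confidence interval of 1.90 to 30.7 h. The 4 h against 0 h difference of -1.12 ± 0.50 did not pass (adjusted p = 0.0682, edgeR) and did with the block (-1.10 ± 0.20, adjusted p = 1.15e-05). It also passed with library totals (-1.27), with GAPDH and ACTB scaling (-1.67), with no filter (-1.13) and by DESeq2 (-1.13, adjusted p = 0.0324). From 0, 1 and 2 h alone the slope was -0.058 and not called (adjusted p = 0.868). Its slope lost the call without any 1 of 8 libraries, for which it ranged from -0.32 to -0.21. These were 0 h replicate 1, 1 h replicates 1 and 2, 2 h replicates 2 and 3, and all 3 of 4 h.

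The 2 iron regulatory protein mRNAs went in opposite directions under TMM, with ACO1 at -0.026 and not called when scaled to GAPDH and ACTB. ACO1 was at 99.1, 93.2 and 95.2 CPM in replicates 1, 2 and 3 at 0 h and at 101, 93.2 and 105 CPM at 1 h. It reached 121, 109 and 110 CPM at 2 h and 140, 122 and 126 CPM at 4 h. No 4 h library overlapped those at 0 h. Its slope was 0.11 ± 0.016 (SE, adjusted p = 1.76e-05), and its 4 h against 0 h difference was 0.43 ± 0.070 (adjusted p = 0.000107, edgeR).
IREB2 was at 163, 155 and 163 CPM at 0 h and at 137, 150 and 140 CPM at 1 h. It dropped to 108, 117 and 113 CPM at 2 h and to 65.6, 68.0 and 63.3 CPM at 4 h. The ranges of the 4 times did not overlap, and 41.0% of the 0 h level was left at 4 h. Its slope was -0.33 ± 0.019 (SE, adjusted p = 1.60e-09), a half-life of 3.04 h (95% confidence interval 2.71 to 3.46 h).

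FBXL5 had the steepest slope of the members. Its level was 57.6, 63.2 and 63.5 CPM in replicates 1, 2 and 3 at 0 h and 56.4, 47.3 and 49.5 CPM at 1 h. It had come down to 29.8, 33.8 and 28.6 CPM at 2 h and to 22.1, 21.5 and 18.9 CPM at 4 h. Every library at 2 h and 4 h lay below every library at 0 h and 1 h, and the 2 h and 4 h ranges were apart as well. The slope was -0.41 ± 0.031 (SE, adjusted p = 1.37e-08), at percentile 7.08 of all genes, which gives a half-life of 2.44 h (95% confidence interval 2.10 to 2.89 h). FAM200B, on the other strand across FBXL5, held 228 to 366 counts per library against 169 to 716 for FBXL5, and the strand setting of the counting is not known.

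**Figure D3:**
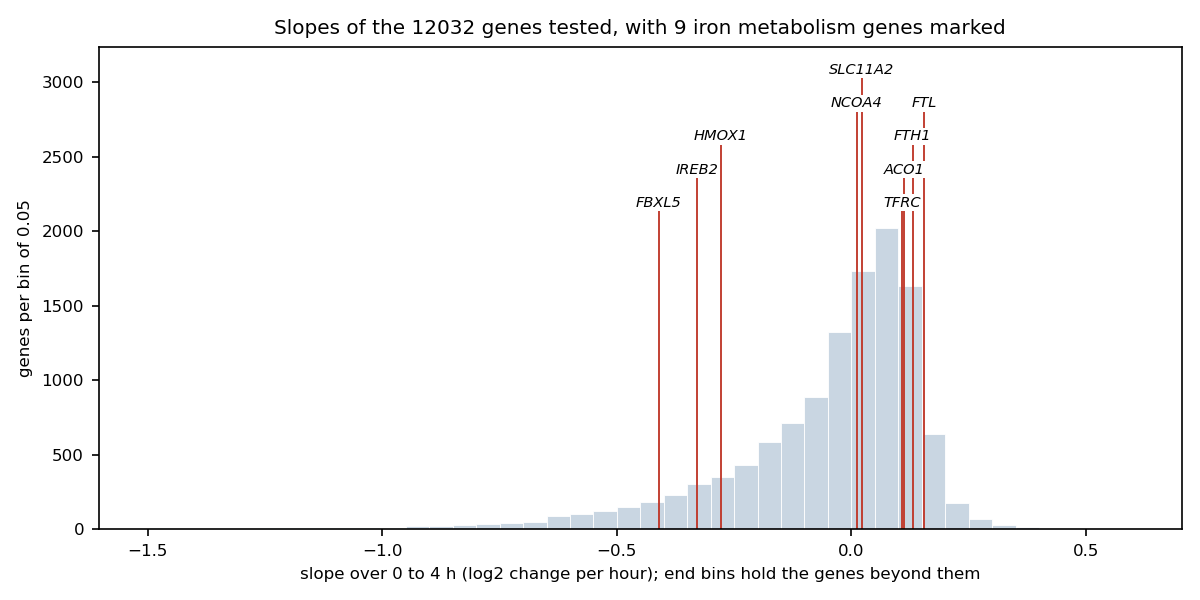
Number of tested genes in each slope interval of 0.05 log2 per hour (TMM), with the 9 tested members as red lines. FBXL5, IREB2 and HMOX1 lie in the left tail at percentiles 7.08, 10.3 and 12.9, and TFRC, ACO1, FTH1 and FTL on the right shoulder between percentiles 81.0 and 93.4.

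The sign of the slopes of TFRC, FTH1 and ACO1 rested on the scaling, and that of FBXL5, IREB2 and HMOX1 did not. The median slope of all genes was 0.0093 with TMM, -0.030 with library totals and -0.13 when each library was scaled to its GAPDH and ACTB counts, the mRNAs of a glycolytic enzyme and of cytoskeletal actin, which themselves rose by 0.15 and 0.12 per hour under TMM. With that last scaling 64.2% of all genes fell and 0.931% rose, and 5 members fell (FBXL5, IREB2, HMOX1, NCOA4 and SLC11A2) and 0 rose. TFRC (-0.030), FTH1 (-0.0078), ACO1 (-0.026) and FTL (0.017) did not pass the test there. With the block added to that scaling TFRC was a sixth member to fall and 0 rose, beside 72.8% of all genes falling and 2.18% rising. TFRC, FTH1, ACO1 and FTL stayed above the all-gene median under each of the 3 scalings, and IREB2 (-0.37 with totals, -0.47 with GAPDH and ACTB) and FBXL5 (-0.45 and -0.55) stayed below it. Both fell more steeply there than under TMM, so their half-lives would be shorter with those scalings.

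**Figure D4:**
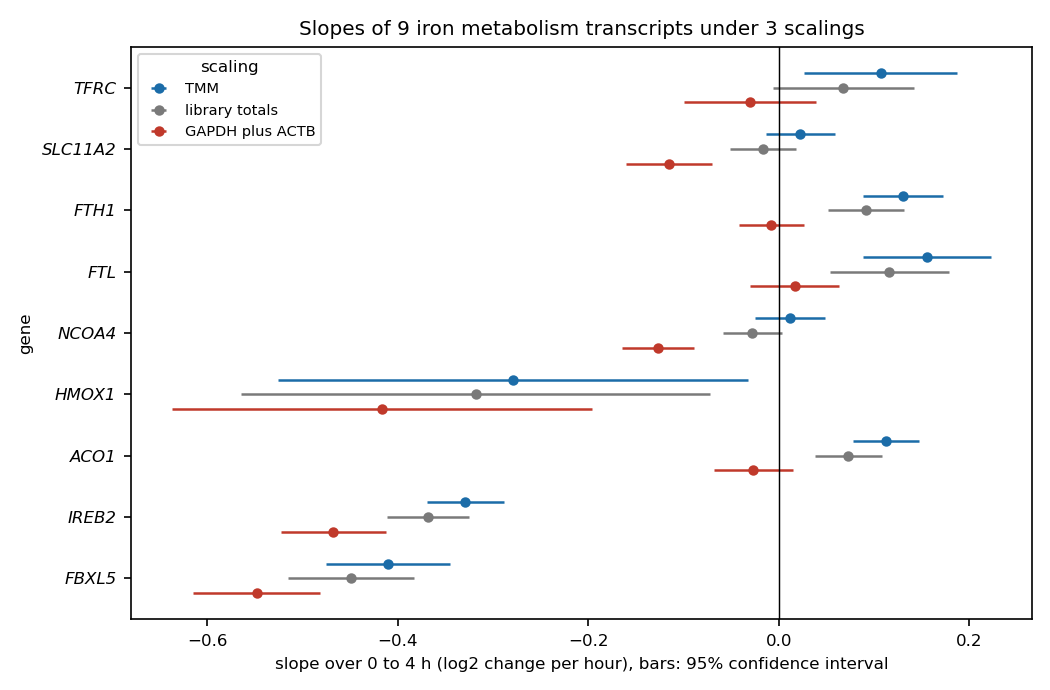
Slope in log2 change per hour (points) with its 95% confidence interval (bars) for the 9 tested members under TMM, library totals, and GAPDH plus ACTB scaling. The 3 scalings shift the members nearly alike, and the intervals of IREB2 and FBXL5 lie below 0 in all 3, while those of TFRC, FTH1, FTL and ACO1 include 0 with GAPDH plus ACTB.

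Taking the time course as 4 groups, 4 h against 0 h called 2 members lower (IREB2 by -1.29 ± 0.059, FBXL5 by -1.56 ± 0.096) and 3 higher (FTH1, FTL and ACO1), beside 31.6% and 28.7% of all genes. With the replicate block it called 3 lower and 4 higher (HMOX1 and TFRC added), beside 36% and 36.8%. In the first hour edgeR called 0 members at an adjusted p below 0.05, beside 2.24% of all genes lower and 0.349% higher. At an unadjusted p below 0.05, IREB2 and FBXL5 were lower and 0 were higher, a looser rule for which the share of all genes was not counted. DESeq2 also called 0 members, beside 288 of 12032 genes lower and 74 higher. The block called IREB2 (-0.17) and FBXL5 (-0.27) lower and FTH1 (0.086) and FTL (0.090) higher in that hour, beside 10.5% and 6.18% of all genes.
Between 1 and 2 h IREB2 (-0.34 ± 0.057, adjusted p = 0.000999) and FBXL5 (-0.73 ± 0.092, adjusted p = 9.16e-05, edgeR) fell and 0 members rose, beside 12.5% falling and 3.76% rising. At an unadjusted p below 0.05 there was 1 riser, ACO1, and again the share of all genes was not counted. DESeq2 called 0 risers, beside 515 of 11798 genes. The block added TFRC (0.22), FTL (0.22), ACO1 (0.18) and FTH1 (0.14) as risers, beside 20.7% and 17%. From 2 to 4 h IREB2 (-0.78 ± 0.060) and FBXL5 (-0.56 ± 0.10) fell and FTH1 rose (0.28 ± 0.089, adjusted p = 0.0277, edgeR), beside 18.3% and 12% of all genes. FTH1 lost this call without 2 h replicate 2 (0.26), 2 h replicate 3 (0.21) or 4 h replicate 1 (0.21). With the block HMOX1 (-0.95) also fell and TFRC (0.19), FTL (0.29) and ACO1 (0.19) also rose, beside 25.3% in each direction. IREB2 thus changed more from 2 to 4 h than from 1 to 2 h, a shorter interval, whereas FBXL5 changed less. A departure from a straight line was called for 2.7% of all genes and for 0 members by edgeR, the lowest adjusted p being 0.160 for FBXL5 and 0.194 for IREB2.

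Ratios of 2 transcripts within a library do not depend on the scaling. Each was the log2 ratio of counts with 0.5 added, tested by a two-sided exact permutation test of its slope over all 369600 arrangements of the times, with p-values adjusted over the 5 ratios. For ACO1 to IREB2 the linear ratio in replicates 1, 2 and 3 was 0.608, 0.603 and 0.584 at 0 h and 2.13, 1.79 and 1.99 at 4 h. These ratios are of counts and not per length, and on the per-kilobase scale the order crossed too, with ACO1 at 12.9 and IREB2 at 25.3 at 0 h against 17.4 and 10.4 at 4 h. The log2 ratio rose by 0.44 per hour (exact permutation p = 2.71e-06, the smallest these arrangements can give, adjusted p = 1.35e-05), with 0.47, 0.42 and 0.44 in the single replicates.

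NCOA4 to FTH1, the breakdown receptor against its cargo, went from 0.248, 0.298 and 0.268 at 0 h to 0.179, 0.217 and 0.185 at 4 h. The 0 h and 4 h ratios did not overlap. The log2 ratio fell by 0.12 per hour (exact permutation test, adjusted p = 0.00195), and by 0.12 to 0.13 in the single replicates. TFRC to FTH1 changed by -0.024 per hour, which did not pass the exact permutation test (p = 0.612, adjusted p = 0.612), and its replicates differed more from each other than the times did. At 0 h this ratio was 0.778, 0.948 and 0.694 in replicates 1, 2 and 3, and at 4 h it was 0.688, 0.934 and 0.615.
TFRC to FTL changed by -0.049 per hour (exact permutation test, adjusted p = 0.352) and FTH1 to FTL by -0.024 (adjusted p = 0.352). When times were exchanged only within a replicate number, the block form of the test with 13824 arrangements, both fell (adjusted p = 0.00109 and 0.0231, exact), and TFRC to FTH1 again did not pass (p = 0.0853, adjusted p = 0.0853). In all 3 replicates each of these 3 ratios had a negative slope.

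**Figure D5:**
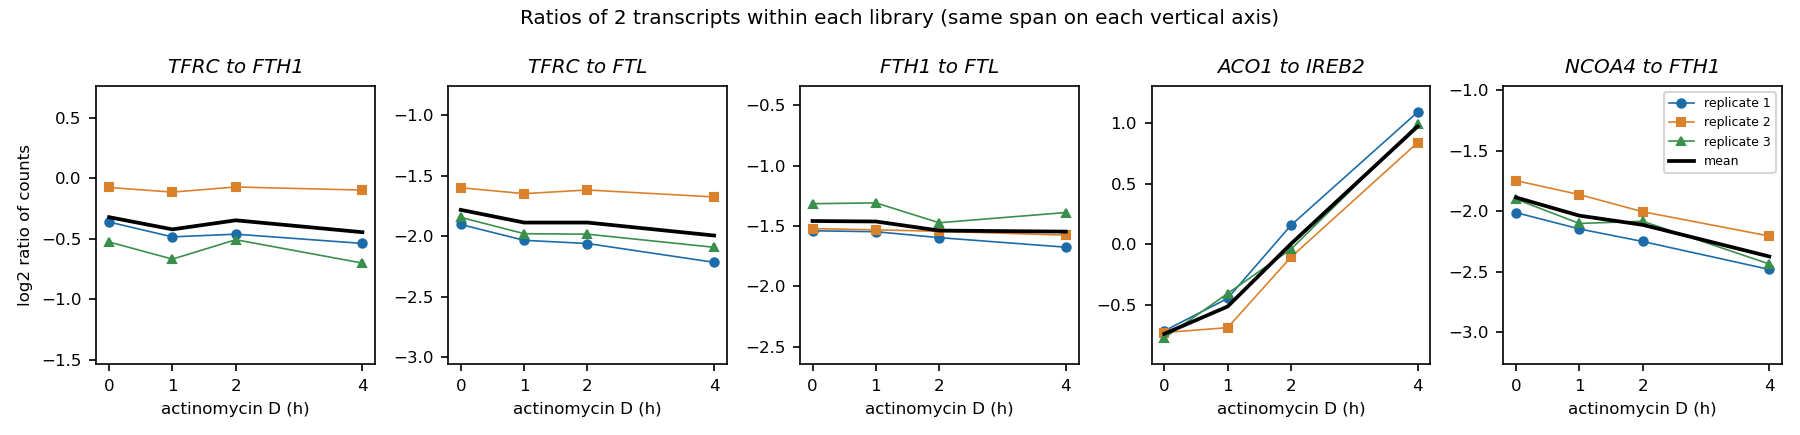
Log2 ratio of the counts of 2 transcripts within each library against hours of actinomycin D, with 1 line per replicate, the mean in black and the same span on each vertical axis. ACO1 to IREB2 climbs in all 3 replicates from below 0 to above 0, NCOA4 to FTH1 declines, and the other 3 ratios are set apart by replicate more than by time.

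The members differ in their untranslated regions. The 3′ UTRs of FTL (144 nt, 0 ATTTA) and FTH1 (442 nt, 1 ATTTA) were short beside the median of 1416 nt. Those of ACO1 (4658 nt, 8 ATTTA) and IREB2 (3310 nt, 7 ATTTA) were both longer than that median. FBXL5 had 1342 nt with 4, SLC11A2 2333 nt with 9, NCOA4 1504 nt with 2, HMOX1 609 nt with 0 and SLC40A1 1288 nt with 5. TFRC, with 12, was at percentile 87.7 of this count among the tested coding genes.

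By the root mean square difference of centred log2 CPM over the 12 libraries, the genes with the course most like that of TFRC were ALCAM (0.061), NEGR1 (0.065), SLC5A6 (0.075), CSRP1 (0.080) and ITGA3 (0.082). Those most like FTH1 were COTL1 (0.032), VAT1 (0.039), MSN (0.044), FLII (0.044) and CLN6 (0.045). These distances share library effects, such as the low TFRC level of replicate 3, as well as time.

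A further 74 genes were taken from lists of iron handling, other reported IRE transcripts, partners of FBXL5 and proteins that act on TFRC mRNA. All were in the table and 64 were tested. Under TMM 28 rose and 11 fell, with a median slope of 0.048 against 0.0093 for all genes, of which 30.7% rose and 32.1% fell. With the replicate block 32 rose and 11 fell, beside 36.2% and 34.8% of all genes, and HFE, SLC39A14, PPOX and FECH were the 4 added. The balance rested on the scaling, with 9 rising and 12 falling with library totals, beside 18.7% and 39.1% of all genes, and 0 rising and 38 falling with GAPDH and ACTB, beside 0.931% and 64.2%. Of 8 tested uptake and reduction genes 3 rose, among them STEAP3 (0.083), the endosomal ferrireductase, and STEAP2 (-0.14) fell. Totals left none of these rises, and with GAPDH and ACTB scaling STEAP3 was called lower (-0.055, adjusted p = 0.0255, edgeR). Of 3 storage, chaperone and export genes, the iron chaperone PCBP2 rose (0.090) and PCBP1 fell (-0.054). PCBP2 too was called lower with GAPDH and ACTB (-0.048, adjusted p = 0.0258, edgeR).
In the list of iron-sulfur cluster assembly 12 of 27 rose and 4 fell, beside 30.7% and 32.1% of all genes, and with GAPDH and ACTB 0 rose and 17 fell, beside 0.931% and 64.2%. ISCA2, a late-acting assembly factor, was the steepest faller (-0.29 ± 0.035, adjusted p = 1.89e-06, half-life 3.43 h). SLC25A28, a mitochondrial iron importer, fell by 0.21 per hour. FDXR, the reductase that feeds electrons to the ferredoxins, rose by 0.22, and by 0.086 with GAPDH and ACTB, where it was not called.
Of 15 tested heme genes 7 rose and 1 fell, beside the same 30.7% and 32.1%. With GAPDH and ACTB 0 rose and 7 fell, beside 0.931% and 64.2% of all genes. The block made it 9 risers, beside 36.2% of all genes, with PPOX (adjusted p = 0.0150) and FECH (adjusted p = 0.00257, edgeR) added. The faller was BACH1, the heme-binding repressor of HMOX1 and the ferritin genes (-0.42 ± 0.027, adjusted p = 4.07e-09, edgeR), with a half-life of 2.36 h.

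Among other transcripts reported to carry an IRE, EPAS1, a hypoxia-inducible factor, rose under TMM (0.12, adjusted p = 0.0143, edgeR). It lost the call with library totals (0.083) and with GAPDH and ACTB (-0.015). CDC14A, a phosphatase, fell (-0.32 ± 0.038, adjusted p = 2.31e-06, edgeR) and CDC42BPA was at 0.0020 with no call. A match to the IRE letters was found in the 3′ UTR of CDC14A.
CDC14A 3′ UTR, chr1:100518583-100518611, plus strand: tatttaCatgtaCAGTGTtacattatata
FBXL5 acts in a ubiquitin ligase with SKP1, CUL1 and RBX1. CUL1 fell by 0.18 per hour under TMM, half-life 5.44 h, and by 0.32 with GAPDH and ACTB, and SKP1 (0.11) and RBX1 (0.084) rose under TMM but were at -0.031 and -0.053, not called, with GAPDH and ACTB. Of 4 genes whose proteins act on TFRC mRNA or on mRNA with ATTTA elements, ZFP36 (-0.61 ± 0.087, adjusted p = 1.45e-05) and ZC3H12A (-0.28 ± 0.083, adjusted p = 0.00815, edgeR) fell, with half-lives of 1.65 and 3.62 h at mean counts of only 18.7 and 21.2. Mean levels of ZC3H12A were 3.30, 1.99, 1.38 and 1.59 CPM at 0, 1, 2 and 4 h, with no drop after 2 h. RC3H2 rose by 0.060 under TMM and fell by 0.078 with GAPDH and ACTB, and RC3H1 was at -0.0086 with no call.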

How the data were processed

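RNA-Seq of 12 A673 libraries (3 at each of 0, 1, 2 and 4 h of 5 µM actinomycin D) was analysed. The deposited values are raw read counts, 1 row per gene symbol, as the authors made them. Per the labels the libraries were made with a stranded mRNA kit, and the submitters' processing notes name STAR, FastQC and hg19 without roles. The counting tool and its strand setting are not given in the sources used here. No column was without a sample (0 left over). The members and lists were chosen with earlier results of these data known. All 10 members were named, the 5 nearest genes for TFRC and FTH1, and list genes that passed with a slope beyond 0.25 or that a clause needed.

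Genes averaging 10 or more counts were fitted with edgeR 4.0.16 in R 4.3.3 (TMM, glmQLFit and glmQLFTest, time as a number or as 4 groups), tested first on simulated data. The common biological coefficient of variation was 0.0858. The half-life in hours is -1 divided by the slope under TMM and is relative to that scaling. CPM use TMM library sizes, except the marker sums, which use library totals. Same-numbered samples deviated together (correlations 0.30 to 0.61 over 18 pairs), so the numbers of the labels were taken to pair the samples. Replicates differed beyond sampling noise (chi-square per degree of freedom 3.20 to 8.65). P-values measure the spread between cultures of 1 line. Alternatives were other scalings, DESeq2 1.42.0, other filters, a replicate block, other time points, each library left out, pseudogene rows added and, chosen after seeing the data, GAPDH and ACTB scaling with the block. Sequences and transcript lengths are from GENCODE version 44 (GRCh38), which is not the build named for the counts, and genes were joined by symbol. 1 gene of the lists is not reported here.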

Additional observations from a re-analysis of the deposited data

How the results depend on the processing

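With GAPDH and ACTB scaling 5 members fell and 0 rose by slope, beside 64.2% and 0.931% of all genes. The same counts held in 4 h against 0 h, beside 7612 falling and 111 rising of 12032 genes. In the first hour 1 fell and 0 rose, beside 537 and 3. From 2 to 4 h 5 fell and 0 rose, beside 4857 and 9. With the replicate block added to that scaling 6 fell (TFRC added) and 0 rose by slope, beside 72.8% and 2.18% of all genes. At 4 h against 0 h 7 fell (TFRC and ACO1 added) and 0 rose, beside 9044 and 341 of 12032 genes. Under that scaling without and with the block the slopes that changed sign were TFRC (-0.030, -0.032), SLC11A2 (-0.12, -0.12), FTH1 (-0.0078, -0.0076), NCOA4 (-0.13, -0.13) and ACO1 (-0.026, -0.026), and the 4 h differences TFRC (-0.15, -0.16), SLC11A2 (-0.48, -0.48), FTH1 (-0.038, -0.038), NCOA4 (-0.52, -0.53) and ACO1 (-0.12, -0.12). Library totals turned SLC11A2 (-0.017, and -0.079 at 4 h) and NCOA4 (-0.028, and -0.12 at 4 h) and left 0 risers from 2 to 4 h, beside 576 of 12032 genes. From 0, 1 and 2 h alone 2 members rose by slope, beside 1433 of 12032 genes, and TFRC (0.11), FTL (0.16) and HMOX1 (-0.058) lost the call. From 1, 2 and 4 h alone TFRC (0.12) lost it, and with no filter its 4 h difference passed (0.38). The replicate block called 2 lower and 2 higher in the first hour, beside 10.5% and 6.18% of all genes. It called 4 higher from 1 to 2 h (17% of all genes) and 4 higher from 2 to 4 h (25.3%). It also moved TFRC to FTL (-0.049) and FTH1 to FTL (-0.024) past the threshold. It changed no member's slope call under TMM. Leaving out single libraries gave 0 to 2 risers from 2 to 4 h, beside 915 to 1439 of 12032 genes. It gave -0.064 to 0.0070 for TFRC to FTH1 and -0.026 to 0.077 for the NCOA4 4 h difference. At 4 h against 0 h TFRC passed without 0 h replicate 2 (0.49), 1 h replicate 3 (0.39) or 4 h replicate 3 (0.53), and HMOX1 without 0 h replicate 3 (-1.38), 2 h replicate 1 (-1.12) or 4 h replicate 1 (-1.48). The causes were not tested. FBXL5 and IREB2 kept their call and sign in the slope and in 4 h against 0 h under every alternative run. HMOX1 has no value with a mean of at least 50 counts, and depth limits it (14 to 86 counts) and SLC40A1 (2 to 8 counts).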
